A study of Mus musculus with 9 samples.

Results

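Heat shock proteins and their co-chaperones were followed in mouse retinal ganglion cell sorts before and after optic nerve crush. The members were all genes whose symbol belongs to the HSP90, HSP70 (Hsph1 included), small HSP, chaperonin (Hspd1 and Hspe1) or DNAJA, DNAJB and DNAJC families, pseudogenes left out, with 10 or more counts in at least 3 of the 9 libraries. Of 24772 entries in the deposited table, 72 carried such a symbol and 62 met the count minimum. They were 3 HSP90, 13 HSP70, 5 small HSP, 2 chaperonin, 4 DNAJA, 10 DNAJB and 25 DNAJC genes, and all 62 also passed the expression filter of the test. The weakest members were Hspb8, with 0 to 40 counts and 10 or more in 3 libraries, and Hspb7, with 4 to 20 counts and 10 or more in 4 libraries. Just outside were Hspa12b (0 to 18 counts) and Hspb2 (0 to 14 counts), each with 10 or more counts in 2 libraries.

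HSP70 proteins bind exposed hydrophobic stretches of unfolded clients, J-domain proteins (the DNAJ families) bring clients to them and trigger ATP hydrolysis, and nucleotide exchange factors release the client. HSP90 acts later on near-native clients, small HSPs hold unfolded proteins without ATP, and HSP60 with HSP10 forms a folding chamber in mitochondria. Heat shock factor drives the cytosolic inducible genes, whereas the unfolded protein response drives those of the endoplasmic reticulum. Long-lived neurons such as ganglion cells rely on these systems because they cannot dilute damaged proteins by dividing.

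The study asked how zinc released by amacrine cells, the inhibitory interneurons of the inner retina, affects ganglion cells after injury of their axons. Group Ctrl held sorted cells of intact wild-type retinas, group ONC those of wild-type retinas at day 3 after crush of the optic nerve, and group CKO those of retinas 3 days after crush in which the zinc transporter gene for ZnT3 was conditionally deleted in amacrine cells. Each group had 3 libraries, the labels give no age, strain or Cre driver, and intact knockout retinas were not analysed here, so crush and genotype differ at once in CKO against Ctrl. No label says that libraries came from separate animals, so the p-values measure a spread between samples that may be technical only.

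Total counts ranged from 14166996 to 25571715 per library, and levels are in CPM, which are counts scaled to the size of each library after TMM. The ONC libraries are named by their column numbers in the table, 3, 5 and 6. Across genes, columns 3 and 6 correlated at r = 0.992, while column 5 correlated with them at 0.933 and 0.937 and with the CKO libraries at 0.952 to 0.954. Pairs within Ctrl or CKO correlated at 0.957 to 0.965. Whether columns 3 and 6 are separate samples could not be settled from the labels, and if they are not, ONC has 2 samples and its p-values are too small. Results are therefore also given with these 2 summed to 1 library, without column 5, and with column 5 alone, where ONC is a single library assumed to vary like the Ctrl and CKO libraries that then supply the spread. The labelled cell type was weakly marked: 14 ganglion cell markers summed to 118 to 253 CPM over all libraries, while 15 rod photoreceptor markers summed to 86119 to 88778 CPM in Ctrl and 96994 to 105293 CPM in ONC. Müller glia markers summed to 813 to 843 CPM in Ctrl, to 1643, 1136 and 1565 CPM in ONC columns 3, 5 and 6, and to 1328 to 1435 CPM in CKO. Amacrine markers summed to 527 to 604 CPM in Ctrl, 239 to 267 CPM in ONC and 191 to 209 CPM in CKO, and no marker of these lists was at 0 in every library. In ONC against Ctrl, 10 of 15 rod markers were called higher and 2 lower (Gngt1 and Pdc). Of 12 Müller glia markers, 8 were called higher and 0 lower, and of 10 tested amacrine markers 6 lower and 0 higher. Of all genes, 13.0% were called higher and 12.8% lower. Fewer cells of a type and less RNA per cell cannot be told apart in such bulk libraries, and the part of these shifts in the values below was not tested.

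Promoter sequences are shown for the members that represent the 2 stress programmes, the endoplasmic reticulum genes with an element of the unfolded protein response and the heat shock genes with a heat shock element. RefSeq windows of the 250 bases before the start of transcription (GRCm38.p6) were matched for 51 of the 62 members. The stress element of the endoplasmic reticulum was searched on both strands as CCAAT and CCACG with any 9 bases between them and was found in 3 members, Hspa5, Dnajc3 and Hsp90b1, against 0.13% of 27025 genes. The shorter form, ATTGG and CCACG with 1 base between them, was found in 0 members against 0.04% of genes. The 30 bases around each match are given 5′ to 3′ on the gene's strand, with the match in capitals, for Hspa5 at chr2:34772020-34772049 (plus strand), Dnajc3 at chr14:118937822-118937851 (plus) and Hsp90b1 at chr10:86705632-86705661 and chr10:86705527-86705556 (minus, the latter match reading on the opposite strand).
Hspa5: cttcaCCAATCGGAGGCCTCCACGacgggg
Dnajc3: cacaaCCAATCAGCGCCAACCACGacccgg
Hsp90b1, distal: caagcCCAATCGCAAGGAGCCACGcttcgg
Hsp90b1, proximal: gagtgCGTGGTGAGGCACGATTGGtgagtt

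The match lay 65 to 47 bases before the start in Hspa5, 105 to 87 in Dnajc3, and 212 to 194 and 107 to 89 in Hsp90b1. A heat shock element was searched on both strands as 2 facing units, GAA and TTC in either order with any 2 bases between them, and as 3 units, GAA, TTC and GAA at the same spacing, which contains the former. The form with 2 units was found in 13 of 51 members against 14.55% of genes, and the form with 3 units in Dnajb6, Hspd1 and Hspe1 against 0.51% of genes. Neighbouring Hspd1 and Hspe1, which share a promoter region, were counted as 2 genes, as were the near copies Hspa1a and Hspa1b. The stress-inducible Hspa1a carried the form with 2 units at chr17:34972242-34972271 (minus strand), and Hspe1 carried both forms, overlapping, at chr1:55088052-55088081 (plus strand).
Hspa1a: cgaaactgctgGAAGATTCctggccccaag
Hspe1: cggtccgTTCTAGAACCTTCCGGAAggccc

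The Hspa5 and Hspe1 sites lie inside annotated GENCODE exons. The windows of Hspa1a and its near copy Hspa1b were identical at 247 of 250 bases. Their transcripts were not compared, so whether reads of this pair were split between the 2 genes is not known. The whole window of Dnajc3, which has no exonic base, is shown because it carries the element and the gene kept its call in ONC against Ctrl in all 18 other settings (chr14:118937682-118937931, plus strand).
Dnajc3 window: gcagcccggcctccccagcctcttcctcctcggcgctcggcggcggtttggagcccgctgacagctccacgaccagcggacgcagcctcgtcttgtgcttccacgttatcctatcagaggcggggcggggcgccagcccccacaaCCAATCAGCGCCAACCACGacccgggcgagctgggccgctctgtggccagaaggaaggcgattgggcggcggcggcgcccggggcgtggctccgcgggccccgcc

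Levels per length were read from the deposited FPKM values of Ctrl and CKO, in which Hsp90aa1 stood far above every other member. Hsp90aa1, the inducible cytosolic HSP90, was at 4669 ± 118 FPKM in Ctrl and 6162 ± 83.8 FPKM in CKO (SD, n = 3), rank 11 of all entries by its mean. On the CPM scale its log2 fold change in CKO against Ctrl was 0.19 (edgeR adjusted p 0.191), which was not called. Next were Dnajc19, a J-domain protein of the mitochondrial import motor, at a mean of 379 FPKM, the splicing-associated Dnajc8 at 334 FPKM, and Hspa8, the constitutive HSC70, at 320 FPKM. The order of these 3 depended on the group, since Dnajc8 was at 353 ± 6.96 FPKM and Hspa8 at 304 ± 36.8 FPKM in Ctrl, but at 316 ± 3.21 and 336 ± 10.2 FPKM in CKO. The highest of the other families were Hspb6 among small HSPs (281 FPKM), Hspe1 of the chaperonins (209 FPKM), Dnajb6 (194 FPKM) and Dnaja1 (110.1 FPKM). By CPM per kilobase of GENCODE exons over all 9 libraries the order below Hsp90aa1 differed, with Hspa8 (153), Dnajc8 (141), Hspb6 (134) and Hsp90b1 (126) next, Dnajc19 at rank 9 (51.0), and Dnaja2 (59.4) above Dnaja1 (26.4). The inducible Hspa1a and Hspa1b, by contrast, summed to only 34.0 to 45.8 CPM in Ctrl and 42.9 to 53.8 CPM in ONC.

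**Figure D1:**
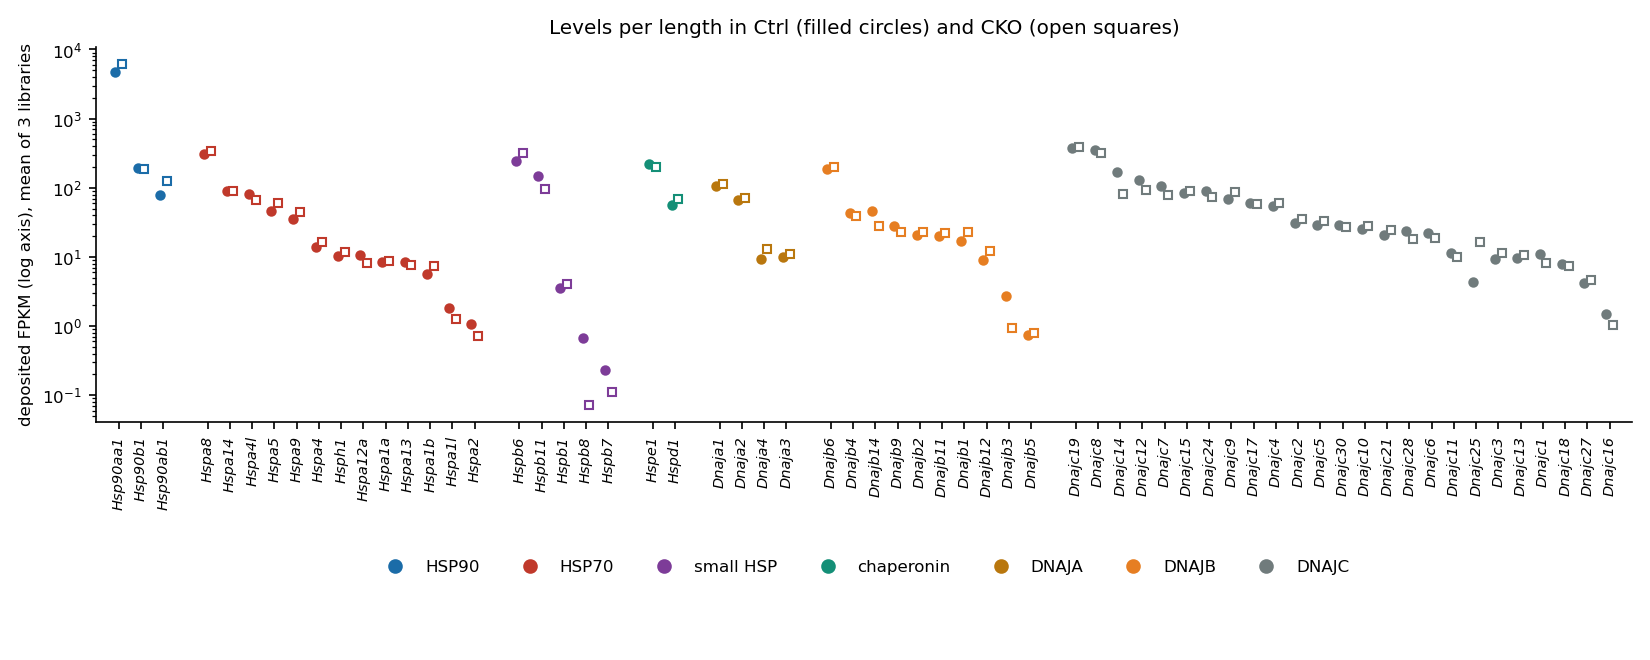
Mean deposited FPKM (log axis) of all 62 members by family in Ctrl (filled circles) and CKO (open squares), 3 libraries each. Hsp90aa1 lies near 4669 to 6162 FPKM, while Dnajc19, the next highest, has a mean of 379 FPKM.

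After crush of wild-type retinas, read from ONC against Ctrl, every family had at least 1 member called in 1 or the other direction. edgeR's quasi-likelihood test with Benjamini-Hochberg adjustment over 15841 genes called 14 of 62 members higher (22.6%, against 13.0% of all genes) and 8 lower (12.9%, against 12.8%), where 25.8% of all genes were called in either direction. The median log2 fold change of the members was 0.06, against -0.04 over all genes. J-domain genes, 62.9% of the members, made up 12 of the 14 higher and 5 of the 8 lower ones, which is 30.8% and 12.8% of the 39 tested. The higher members were Hsp90ab1, Hspa5, Dnaja3, Dnajb1, Dnajb2, Dnajb11, Dnajb12, Dnajc3, Dnajc5, Dnajc9, Dnajc18, Dnajc21, Dnajc25 and Dnajc27, and the lower ones Hspa12a, Hspb11, Hspe1, Dnajb9, Dnajb14, Dnajc6, Dnajc12 and Dnajc14. Groups did not overlap for 17 members on the higher side and 13 on the lower, which is 48.4% of members against 39.5% of all genes. With columns 3 and 6 summed the test called 11 members higher (17.7%, against 7.42% of all genes) and 2 lower (3.23%, against 4.37%). With column 5 alone it called 4 higher (6.45%, against 4.20%) and 1 lower (1.61%, against 2.43%), and without column 5 it called 18 in each direction (29.0%, against 23.1% higher and 23.3% lower).

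**Figure D2:**
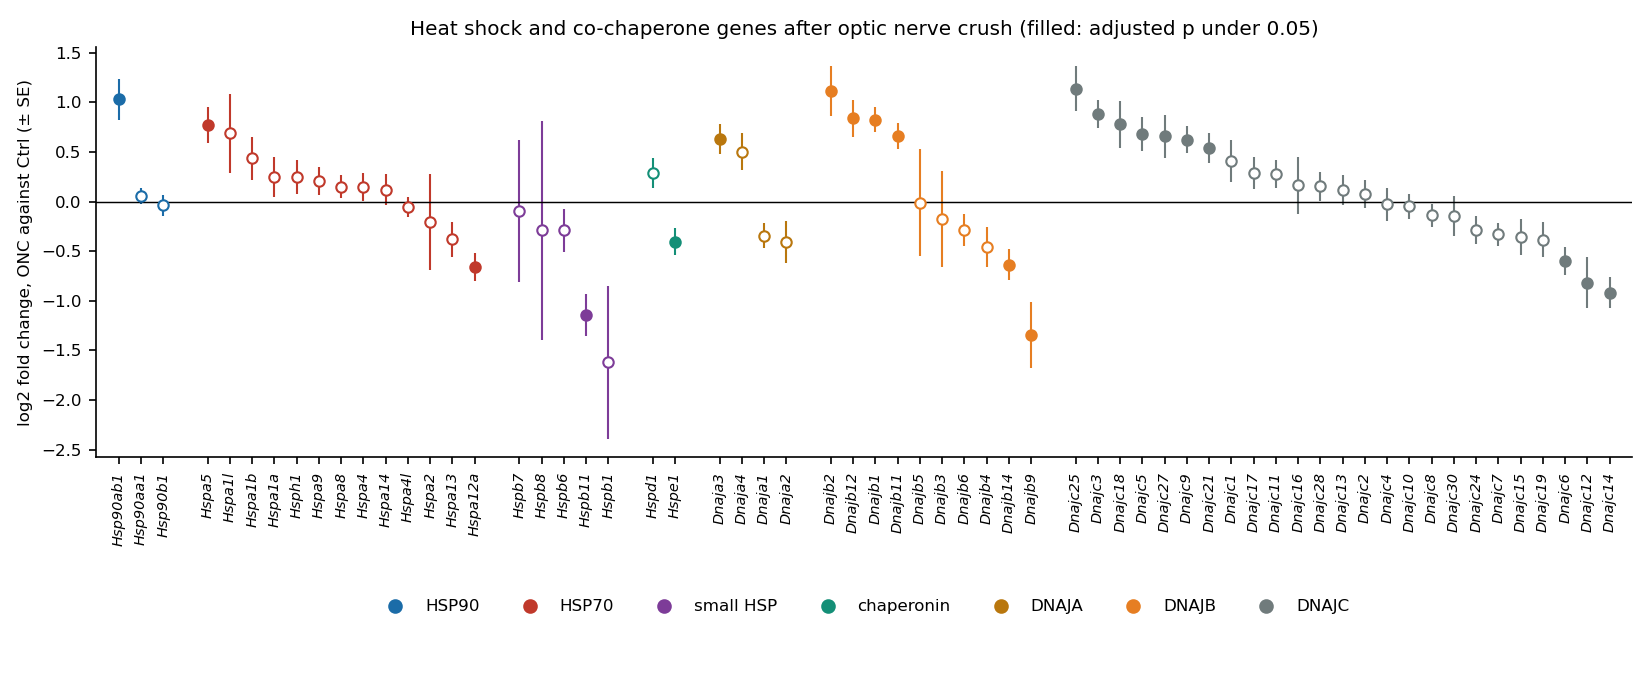
Log2 fold change of ONC against Ctrl (± SE) for all 62 members, ordered within each family, with filled points for an edgeR adjusted p under 0.05. Filled points lie on both sides of 0 in the HSP70, DNAJB and DNAJC families, from -1.34 for Dnajb9 to 1.14 for Dnajc25.

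Among the 3 HSP90 members, the constitutive cytosolic Hsp90ab1 rose and the others did not pass the test. The mitochondrial HSP90 gene Trap1, whose symbol lies outside the member rule, is given below with the partner lists. Hsp90ab1 (ENSMUSG00000023944, GRCm38 chromosome 17, 45567775 to 45573271, minus strand) was at 143, 164 and 151 CPM in Ctrl, 380.3, 200.1 and 355 CPM in ONC columns 3, 5 and 6, and 198, 199.98 and 230.4 CPM in CKO. All 3 ONC libraries lay above Ctrl, but column 5 lay within the range of CKO. The log2 fold change was 1.03 ± 0.203 (edgeR adjusted p 0.00578), and 0.42 with column 5 alone, where it was not called (edgeR adjusted p 0.0663). Hsp90aa1 was at 5768, 6019 and 5859 CPM in Ctrl and 6365, 6163 and 5788 CPM in ONC, overlapping groups with a log2 fold change of 0.05 (edgeR adjusted p 0.661), but 0.40 and called with an offset for GC content and length (edgeR adjusted p 0.0105). The HSP90 of the endoplasmic reticulum, Hsp90b1, was at 521, 527 and 492 CPM in Ctrl and 508, 503 and 489 CPM in ONC, also overlapping. Its log2 fold change was -0.04 (edgeR adjusted p 0.816), but with the same offset it turned to 0.42 and was called (edgeR adjusted p 0.0229).

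Of the 13 HSP70 genes, Hspa5 rose, Hspa12a fell and 11 were not called. The inducible genes were among the latter: Hspa1a was at 21.5, 22.9 and 27.7 CPM in Ctrl and 32.7, 22.1 and 30.9 CPM in ONC (a log2 fold change of 0.25, edgeR adjusted p 0.374), with overlapping groups. Hspa1b was at 16.6, 11.1 and 18.1 CPM in Ctrl and 18.5, 20.8 and 22.8 CPM in ONC (0.44, edgeR adjusted p 0.15), and Hsph1, the HSP110 exchange factor, at 29.1, 30.8 and 24.0 CPM in Ctrl and 37.2, 29.4 and 32.9 CPM in ONC (0.25, edgeR adjusted p 0.302). Hspa1b had no overlap between these groups and Hsph1 overlapped in column 5. The constitutive Hspa8 was at 622, 666 and 531 CPM in Ctrl and 668, 719 and 628 CPM in ONC (a log2 fold change of 0.15, edgeR adjusted p 0.363), and the exchange factor Hspa4 had a log2 fold change of 0.14. Mitochondrial Hspa9 (0.21), ribosome-associated Hspa14 (0.12) and Hspa2 (-0.20), at under 4 CPM in every library, were not called either, though Hspa14 was called with column 5 alone (0.50, edgeR adjusted p 0.0212). Hspa12a, a distant HSP70 relative, was at 59.7, 63.5 and 54.5 CPM in Ctrl and 34.5, 42.9 and 35.2 CPM in ONC. Every ONC library lay below every Ctrl library (log2 fold change -0.66 ± 0.144, edgeR adjusted p 0.00867), but the call was lost without column 3 (0.0545) or column 6 (0.051).

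Genes of the endoplasmic reticulum split after crush, a grouping made after their values were seen. Of the 11 members assigned to it, 4 were called higher (36.4%, against 13.0% of all genes) and 3 lower (27.3%, against 12.8%). The grouping may be incomplete, and it leaves out Dnajc18, which is given below with the other J-domain genes. Hspa5 (ENSMUSG00000026864, GRCm38 chromosome 2, 34771970 to 34777547, plus strand) encodes BiP, the HSP70 of this compartment. It was at 95.3, 114 and 103 CPM in Ctrl, 211, 124 and 197 CPM in ONC columns 3, 5 and 6, and 134, 127 and 139 CPM in CKO. Columns 3 and 6 stood well above all other libraries, and column 5 lay just above Ctrl and below CKO. The log2 fold change was 0.77 ± 0.179 (edgeR adjusted p 0.011) and fell to 0.28 with column 5 alone (edgeR adjusted p 0.235).

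The luminal BiP co-chaperone Dnajc3, also known as P58IPK (ENSMUSG00000022136, GRCm38 chromosome 14, 118937976 to 118981697, plus strand), was at 55.7, 43.2 and 42.3 CPM in Ctrl, 90.6, 83.5 and 86.3 CPM in ONC, and 52.4, 60.7 and 63.5 CPM in CKO. The ONC libraries, column 5 included, lay above all others. Its log2 fold change was 0.88 ± 0.145 (edgeR adjusted p 0.00285), and 0.85 with column 5 alone (edgeR adjusted p 0.0155). A second luminal BiP partner, Dnajb11, was at 33.1, 35.6 and 36.7 CPM in Ctrl, 58.3, 53.0 and 55.2 CPM in ONC, and 40.8, 42.5 and 37.8 CPM in CKO. ONC again lay above both other groups (log2 fold change against Ctrl 0.66 ± 0.129, edgeR adjusted p 0.00564, and 0.0528 with column 5 alone).

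Dnajb9, or ERdj4, another BiP partner and a target of the IRE1 branch of the unfolded protein response, moved the other way. It was at 59.1, 63.6 and 68.4 CPM in Ctrl, 16.8, 44.2 and 14.5 CPM in ONC columns 3, 5 and 6, and 49.9, 59.0 and 52.5 CPM in CKO. Columns 3 and 6 were the lowest by far, and column 5 lay between them and the other groups. The log2 fold change was -1.34 ± 0.333 (edgeR adjusted p 0.0144), and -0.50 with column 5 alone (edgeR adjusted p 0.109). The call was also lost without column 3 (edgeR adjusted p 0.0605) or without Ctrl replicate 3 (edgeR adjusted p 0.0524).

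The membrane J-domain proteins Dnajb12 and Dnajb14, which work in the degradation of proteins of this compartment, also differed in direction. Dnajb12 was at 25.8, 18.4 and 30.9 CPM in Ctrl and 49.1, 41.4 and 44.3 CPM in ONC, with no overlap (log2 fold change 0.84 ± 0.187, edgeR adjusted p 0.0092). Dnajb14 was at 414, 387 and 487 CPM in Ctrl, 234, 334 and 260.0 CPM in ONC, and 232, 288 and 281 CPM in CKO. Both groups after crush lay below Ctrl (ONC log2 fold change -0.64 ± 0.157, edgeR adjusted p 0.0138). That call was lost without Ctrl replicate 3 (edgeR adjusted p 0.0709), column 3 (0.0751) or column 6 (0.0587), and with the GC and length offset (0.258).

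Dnajc14 (ENSMUSG00000025354, GRCm38 chromosome 10, 128804062 to 128819446, plus strand), a membrane J-domain protein involved in receptor export, was the only lower member called under all 18 other settings. It was at 85.4, 78.6 and 87.4 CPM in Ctrl, 37.6, 51.1 and 44.6 CPM in ONC, and 37.6, 45.8 and 52.2 CPM in CKO. Every library after crush lay below every Ctrl library, and ONC and CKO overlapped. Its log2 fold change was -0.92 ± 0.16 (edgeR adjusted p 0.00372) and -0.69 with column 5 alone (edgeR adjusted p 0.0489, the spread coming from Ctrl and CKO). Of its exons, 17.0% overlap Ormdl2 and 2.1% Tmem198b on the opposite strand, so reads there could belong to either gene. Strand is stated for these libraries in the labels, yet tagmentation, the named method, does not mark it, and how the counting treated strand is not given. Sarnp, at a mean of 9481 counts, overlaps 0.8% of the Dnajc14 exons on the same strand, where strand could not separate the reads.

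**Figure D3:**
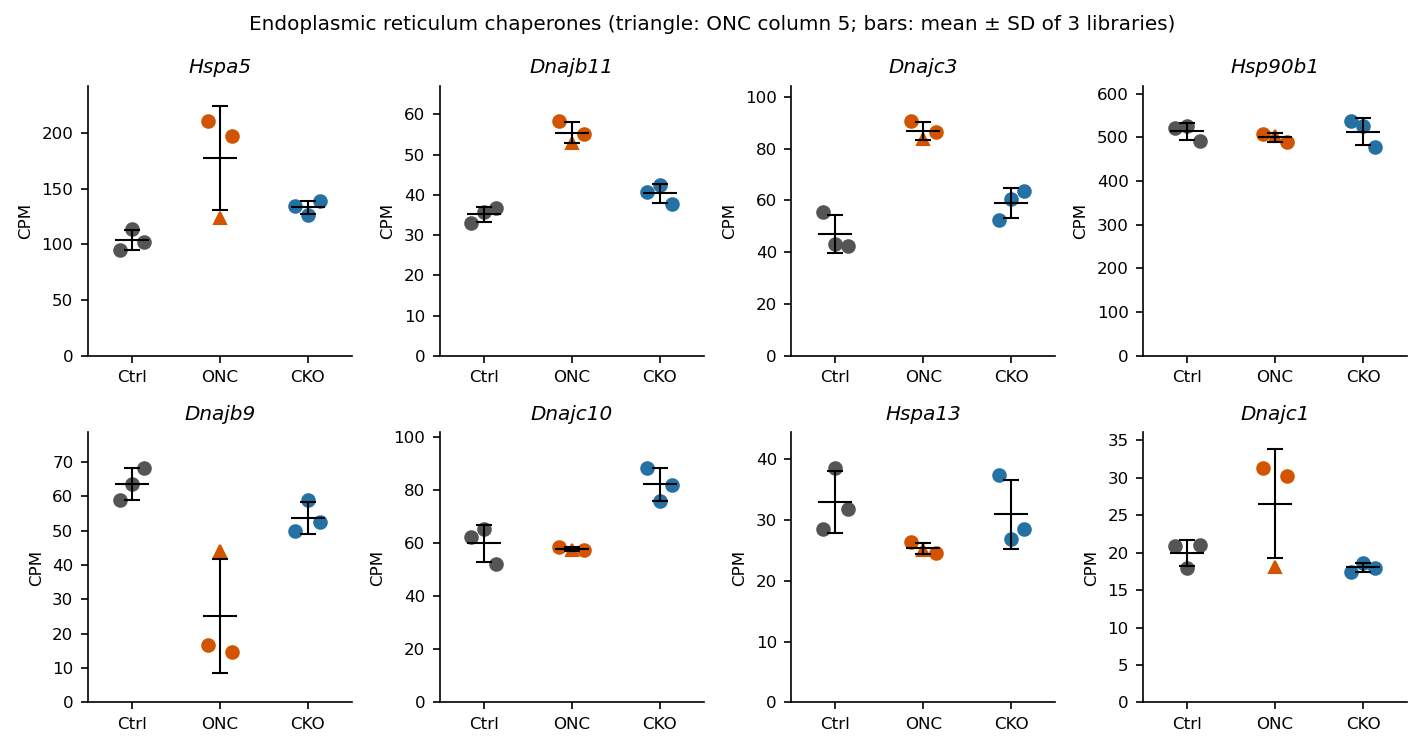
CPM by library of 8 endoplasmic reticulum chaperone genes in Ctrl, ONC and CKO, with bars for the mean ± SD of 3 libraries and a triangle for ONC column 5. Hspa5, Dnajb11 and Dnajc3 have their highest libraries in ONC, Dnajb9 its lowest at 14.5 and 16.8 CPM, and Hsp90b1 lies at 478 to 537 CPM in all groups.

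Cytosolic J-domain genes had 2 rises. Dnajb1 (ENSMUSG00000005483, GRCm38 chromosome 8, 83608193 to 83612653, plus strand), the inducible HSP40 partner of HSP70, was at 46.3, 52.0 and 44.6 CPM in Ctrl, 81.8, 92.2 and 79.1 CPM in ONC, and 67.2, 64.2 and 71.5 CPM in CKO. The 3 groups did not overlap, with ONC highest and CKO between, and column 5 was the highest of all libraries. The log2 fold change was 0.83 ± 0.128 (edgeR adjusted p 0.00218), and 0.98 with column 5 alone (edgeR adjusted p 0.00264). Dnajb2, a neuron-enriched co-chaperone that binds ubiquitin, was at 27.5, 29.6 and 44.3 CPM in Ctrl, 91.4, 44.6 and 84.0 CPM in ONC columns 3, 5 and 6, and 37.7, 35.3 and 34.7 CPM in CKO. Column 5 lay level with the highest Ctrl library (log2 fold change over the group 1.11 ± 0.256, edgeR adjusted p 0.0103, and 0.331 with column 5 alone). The abundant Dnaja1, a general HSC70 partner, was at 223, 238 and 241 CPM in Ctrl, 166, 217 and 170.4 CPM in ONC, and 255, 271 and 267 CPM in CKO. ONC lay below both other groups without passing the test against Ctrl (log2 fold change -0.34, edgeR adjusted p 0.0668). Dnaja2 (-0.41), Dnajb4 (-0.46) and Dnajb6 (-0.29) were not called, and their groups overlapped.

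At the synapse, the 2 members moved apart. Dnajc5 encodes the cysteine string protein of synaptic vesicles and was at 185, 165 and 180.0 CPM in Ctrl, 305, 209.6 and 335 CPM in ONC, and 182, 199.7 and 240.3 CPM in CKO. ONC lay above Ctrl and overlapped CKO (log2 fold change against Ctrl 0.68 ± 0.174, edgeR adjusted p 0.0162), and the call was lost without Ctrl replicate 2 (0.0516) or column 6 (0.0555). Dnajc6, neuronal auxilin, which uncoats clathrin vesicles, was at 107, 104 and 105 CPM in Ctrl, 62.0, 84.3 and 62.6 CPM in ONC, and 92.7, 88.7 and 96.8 CPM in CKO. The groups did not overlap, ONC being lowest (log2 fold change -0.60 ± 0.14, edgeR adjusted p 0.0112), but the call was lost without column 3 (0.069) or column 6 (0.0634).

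Other J-domain genes rose in 6 cases and fell in 1. Nuclear Dnajc9, a histone co-chaperone, was at 89.99, 111 and 83.7 CPM in Ctrl, 143, 152 and 143 CPM in ONC, and 131, 116 and 113 CPM in CKO. All ONC libraries lay above the rest (log2 fold change 0.62 ± 0.134, edgeR adjusted p 0.00813, and 0.0162 with column 5 alone). Dnajc25 was at 11.7, 7.42 and 9.33 CPM in Ctrl, 24.4, 16.5 and 22.1 CPM in ONC, and 15.8, 17.3 and 19.4 CPM in CKO. Both groups after crush lay above Ctrl (ONC log2 fold change 1.14 ± 0.228, edgeR adjusted p 0.00621). Mitochondrial Dnaja3 was at 21.1, 24.5 and 26 CPM in Ctrl and 38.1, 35.3 and 37.6 CPM in ONC, with no overlap (0.63, edgeR adjusted p 0.0127). Dnajc21, a ribosome biogenesis factor (0.54, edgeR adjusted p 0.0238), Dnajc18 (0.78, edgeR adjusted p 0.0318) and Dnajc27, which carries a Rab-like GTPase domain (0.66, edgeR adjusted p 0.0445), were called less stably. Each lost its call when any of 4 single libraries was left out, with edgeR adjusted p values of 0.0572 to 0.126, and Dnajc18 and Dnajc27 overlapped Ctrl in column 5. Dnajc12, a co-chaperone of aromatic amino acid hydroxylases, was at 201, 211 and 199 CPM in Ctrl, 90.5, 179 and 76.9 CPM in ONC, and 196, 223 and 169.6 CPM in CKO. Its fall (log2 fold change -0.82 ± 0.257, edgeR adjusted p 0.0365) was lost without any 1 library other than column 5 (edgeR adjusted p 0.0885 to 0.147). The abundant Dnajc8 (-0.14) and Dnajc19 (-0.38) were not called.

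**Figure D4:**
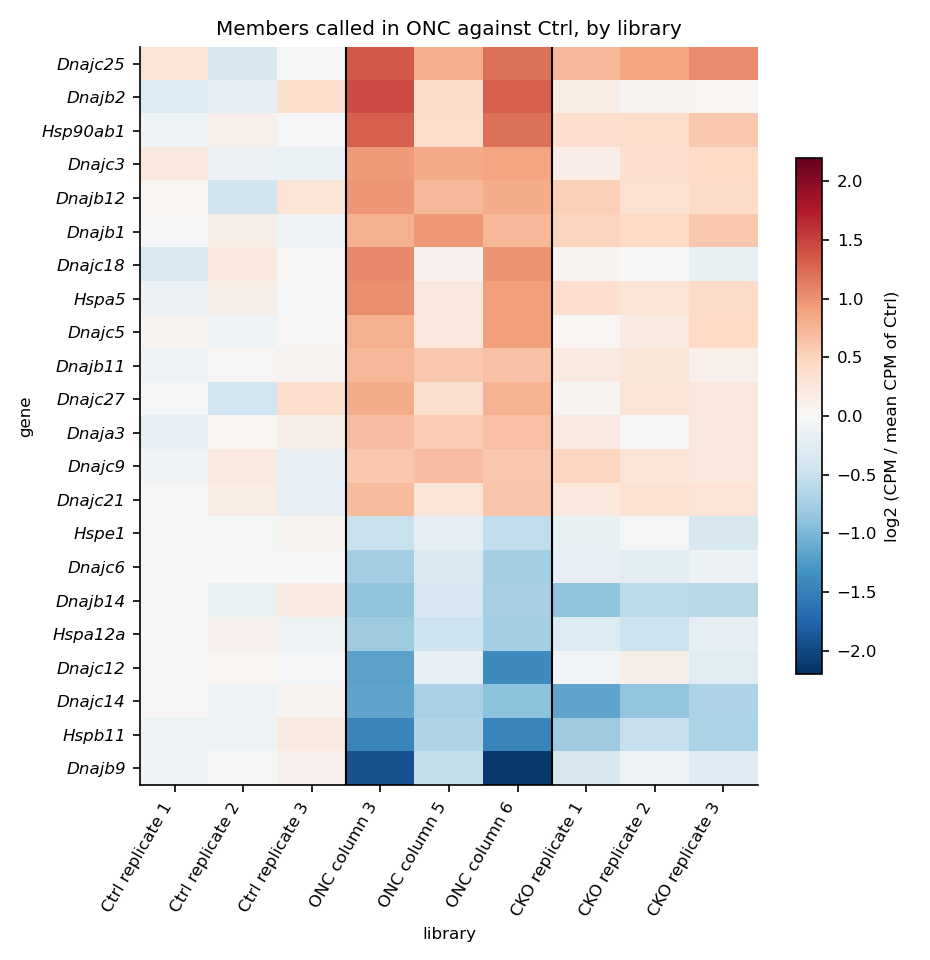
Log2 of CPM over the Ctrl mean for the 22 members called in ONC against Ctrl, in each of the 9 libraries (red higher, blue lower). ONC columns 3 and 6 have the strongest colours in most rows, and column 5 is paler for 20 of the 22 members.

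Column 5 lay between the Ctrl mean and the mean of columns 3 and 6 for 20 of the 22 called members, against 81.5% of the 4080 genes called in all. Dnajb1, Dnajc3, Dnajc9 and Dnajc14 kept their calls under all 18 other settings of the ONC comparison, column 5 alone included, in which the spread comes from Ctrl and CKO only. The median GC content of exons was 49.3% in members called higher, 45.3% in those called lower and 47.3% over all members, and with an offset for GC content and length 20 members were called higher (32.3%, against 14.6% of all genes) and 6 lower (9.68%, against 8.39%). The calls gained under it were Hsp90aa1 (log2 fold change 0.40), Hsp90b1 (0.42), Hspa4l (0.48), Hspa8 (0.32), Hspa9 (0.38), Hspd1 (0.46), Dnajc2 (0.53) and Dnajc7 (-0.45).

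**Figure D5:**
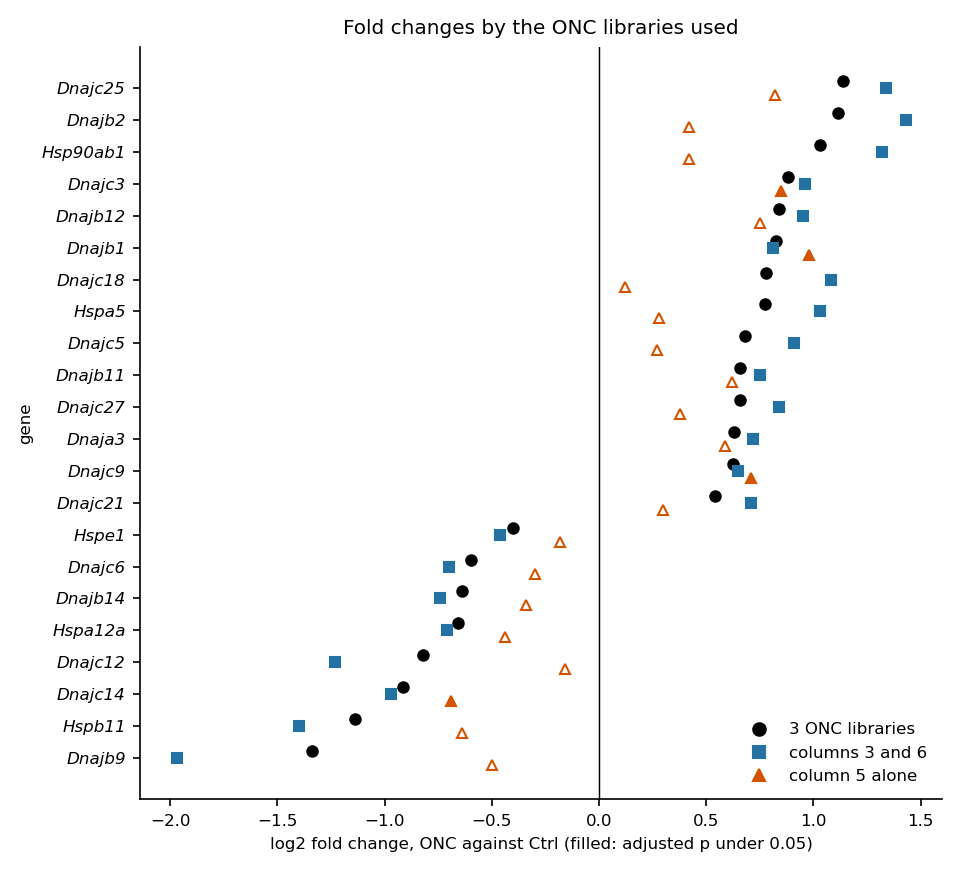
Log2 fold change of ONC against Ctrl for the 22 called members with all 3 ONC libraries (circles), columns 3 and 6 (squares) and column 5 alone (triangles), filled at an edgeR adjusted p under 0.05. All 22 keep their sign with column 5 alone, a single ONC library tested with the spread of Ctrl and CKO, and Dnajb1, Dnajc3, Dnajc9 and Dnajc14 are filled there too.

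Small HSPs and chaperonins had 2 falls and no rise. Hspb11 (ENSMUSG00000063172, GRCm38 chromosome 4, 107253593 to 107279938, plus strand), known as IFT25 and part of the intraflagellar transport complex of cilia, was at 66.9, 67.5 and 83.3 CPM in Ctrl, 26.6, 45.8 and 26.5 CPM in ONC, and 42.3, 50.9 and 45.04 CPM in CKO. Every library after crush lay below Ctrl (ONC log2 fold change -1.14 ± 0.212, edgeR adjusted p 0.00461, and 0.0621 with column 5 alone). The classical Hspb1, or HSP27, was barely detected, at 1.89, 1.89 and 4.51 CPM in Ctrl, 0.438, 1.83 and 0.459 CPM in ONC, and 5.32, 2.88 and 0.755 CPM in CKO. Its log2 fold change of -1.62 ± 0.768 did not pass (edgeR adjusted p 0.138), and the CKO libraries lay on both sides of Ctrl. The abundant Hspb6, or HSP20, was at 280.2, 291 and 314 CPM in Ctrl, 190.0, 354 and 181 CPM in ONC, and 389.8, 365 and 416 CPM in CKO. Column 5 lay above Ctrl and columns 3 and 6 below it (log2 fold change -0.29, edgeR adjusted p 0.343).

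The mitochondrial pair Hspd1 (HSP60) and Hspe1 (HSP10) share a promoter region. Hspe1 was at 135, 135 and 145 CPM in Ctrl and 98.4, 119.8 and 95.5 CPM in ONC, without overlap (log2 fold change -0.40 ± 0.134, edgeR adjusted p 0.0459). The call was lost without any 1 library other than column 5 (edgeR adjusted p 0.111 to 0.203), and the sign turned with the GC and length offset (0.05, edgeR adjusted p 0.805). Hspd1 was at 100.1, 119 and 86.4 CPM in Ctrl and 120.1, 139 and 114 CPM in ONC, overlapping (log2 fold change 0.29, edgeR adjusted p 0.179).

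The promoter elements shown above were set beside the calls. Of the 11 members called higher that had a window, 2 carried the endoplasmic reticulum stress element (Hspa5 and Dnajc3), 1 the heat shock element of 2 units (Dnajc27) and 0 that of 3 units. Of the 7 called lower with a window, Hspe1 alone carried heat shock elements, of both forms. The third gene with the stress element, Hsp90b1, was not called.

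Partners of the members that carry other names were counted from lists. The HSP90 co-chaperone list held 21 genes, among them Trap1, which is itself an HSP90 gene. Of the 21, 8 were called higher after crush (38.1%, against 13.0% of all genes) and 1 lower (4.76%, against 12.8%), with a median log2 fold change of 0.27. The counts were 3 and 0 without column 3, 5 and 0 without column 6, 4 and 0 without Ctrl replicate 1, 5 and 0 without Ctrl replicate 2, and 7 and 0 without Ctrl replicate 3. In these fits 6.73% to 9.45% of all genes were called higher and 4.10% to 7.20% lower. Without column 5 the counts were 10 and 6, where 23.1% and 23.3% of all genes were called. With column 5 alone the median log2 fold change of the list was 0.09. The phosphatase Ppp5c was at 11.5, 18.5 and 12.8 CPM in Ctrl and 47.3, 27.3 and 43.5 CPM in ONC (a log2 fold change of 1.47 ± 0.238, edgeR adjusted p 0.00268). The ubiquitin ligase Stub1 (0.55, edgeR adjusted p 0.00677), the kinase-loading Cdc37 (0.96, edgeR adjusted p 0.00838) and Pih1d1 (0.86, edgeR adjusted p 0.0134) also rose. Trap1 was at 31.1, 30.6 and 35.5 CPM in Ctrl and 46.0, 41.9 and 43.3 CPM in ONC (0.43, edgeR adjusted p 0.0342). Of 11 HSP70 nucleotide exchange factors, 3 were called higher (27.3%, against 13.0% of all genes) and 0 lower (against 12.8%). Without any 1 library other than column 5, 2 were called higher, where 6.73% to 9.45% of all genes were. Without column 5, 4 were called higher and 1 lower, where 23.1% and 23.3% of all genes were. The median log2 fold change was 0.29, and 0.39 with column 5 alone. The 3 called higher were Sil1, Hspbp1 and Bag3. Sil1, the exchange factor of BiP, was at 6.69, 7.91 and 6.01 CPM in Ctrl and 24.2, 16.8 and 20.8 CPM in ONC, with no overlap (log2 fold change 1.58, edgeR adjusted p 0.00442). Hspbp1 was at 9.70, 7.98 and 9.69 CPM in Ctrl and 49.3, 13.5 and 40.9 CPM in ONC columns 3, 5 and 6 (1.92, edgeR adjusted p 0.00521). Its column 5 thus lay far nearer to Ctrl than to the other ONC libraries. Bag3 stayed near the detection limit, at 0.0923, 0.210 and 0 CPM in Ctrl and 0.438, 0.938 and 1.33 CPM in ONC.

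In the CCT chaperonin and prefoldin list, 2 of 13 genes rose (15.4%, against 13.0% of all genes) and 3 fell (23.1%, against 12.8%). Leaving out 1 library gave 1 to 3 higher and 1 to 6 lower, where 6.73% to 23.1% and 4.10% to 23.3% of all genes were called. The extremes were 1 higher without Ctrl replicate 1, 1 lower without column 6, and 3 higher and 6 lower without column 5. The median log2 fold change was -0.06, and 0.29 with column 5 alone. The rises were the CCT subunits Cct7 (log2 fold change 0.68, edgeR adjusted p 0.0042) and Cct3 (0.60, edgeR adjusted p 0.0149), and the falls the prefoldin subunits Pfdn4 (-1.23, edgeR adjusted p 0.00994), Vbp1 (-1.09, edgeR adjusted p 0.0133) and Pfdn1 (-0.52, edgeR adjusted p 0.0389). Of 5 tested heat shock factor genes, the main regulator Hsf1 was at 16.6, 15.2 and 17.2 CPM in Ctrl, 37.4, 26.4 and 33.3 CPM in ONC, and 32.6, 23.6 and 30.7 CPM in CKO. Every library after crush lay above Ctrl (ONC log2 fold change 0.98 ± 0.188, edgeR adjusted p 0.00513), though 0 of the 5 were called with column 5 alone. Hsbp1, a negative regulator of Hsf1, fell by 0.68 (edgeR adjusted p 0.0168), and 0 of these genes were called lower without Ctrl replicate 2, Ctrl replicate 3, column 3 or column 6. Genes induced by tissue dissociation, which include heat shock genes in many preparations, summed to 477 to 561 CPM in Ctrl, to 803, 597 and 755 CPM in ONC columns 3, 5 and 6 and to 580 to 650 CPM in CKO. Of 13 tested, 7 were called higher (53.8%, against 13.0% of all genes) and 1 lower (7.69%, against 12.8%) in ONC against Ctrl. With 1 library left out, 5 to 9 were called higher, where 6.73% to 23.1% of all genes were. In these fits 0 to 1 were called lower, where 4.10% to 23.3% of all genes were, and 0 without any 1 library other than column 5. The median log2 fold change was 0.64, and 0.19 with column 5 alone. The part of these genes in the calls of the members was not tested.

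The effect of deleting ZnT3 on crushed retinas was read from CKO against ONC, in which edgeR called 0 of 62 members, against 0.865% of all genes (0.587% higher and 0.278% lower). At an unadjusted p under 0.05 there were 29 members, 46.8% against 27.2% of all genes, and DESeq2 called 7 higher (11.3%, against 7.35%) and 8 lower (12.9%, against 6.84%). Without column 5 edgeR called 16 higher (25.8%, against 18.6%) and 15 lower (24.2%, against 18.1%), and with column 5 alone 0. The CKO mean lay between the Ctrl and ONC means for 20 of the 22 members called in ONC against Ctrl. These 22 were chosen for their difference between Ctrl and ONC in the same libraries, which favours such a position. The share over all called genes was not computed, and no conclusion is drawn from this count. Dnajc3 had a log2 fold change of -0.56 ± 0.144 (edgeR adjusted p 0.0634), Dnajb11 of -0.46 ± 0.128 (0.0709) and Dnajb9 of 1.10 ± 0.332 (0.0797), each without overlap of the groups. Dnaja1 had 0.52 ± 0.127 (edgeR adjusted p 0.0595), Dnajc10, a disulfide reductase of the endoplasmic reticulum, 0.51 ± 0.13 (0.0634), and Dnajb2 -1.03 ± 0.255 (0.0608). Groups did not overlap for 9 members on the higher and 15 on the lower side, 38.7% against 26.2% of all genes. Hsp90ab1 (-0.57) and Hspa5 (-0.41) overlapped, with column 5 within or below the range of CKO.

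CKO against Ctrl had 4 called members, and it shares its libraries with the other comparisons. edgeR called 2 of 62 members higher (3.23%, against 4.32% of all genes) and 2 lower (3.23%, against 4.58%), where 8.89% of all genes were called in either direction. Groups did not overlap for 19 members on the higher and 11 on the lower side, 48.4% against 35.7% of all genes. A fit of these 2 groups alone called 10 higher and 5 lower, 24.6% of 61 members against 19.4% of all genes in that fit. The 10 were Hsp90aa1, Hsp90ab1, Hspa5, Hspa9, Hsph1, Hspb6, Dnajb1, Dnajc9, Dnajc10 and Dnajc25, and the 5 were Hspb11, Dnajb14, Dnajc7, Dnajc14 and Dnajc28. Dnajb1 had a log2 fold change of 0.51 ± 0.127 (edgeR adjusted p 0.0301) and Dnajc25 of 0.88 ± 0.228 (edgeR adjusted p 0.0348). Dnajb14 fell by 0.68 (edgeR adjusted p 0.0208) and Dnajc14 by 0.89 (edgeR adjusted p 0.00714). Dnajc14 was called in all 17 other settings, whereas Dnajb1, Dnajb14 and Dnajc25 each lost the call when any 1 of 5 single libraries was left out (edgeR adjusted p 0.0544 to 0.123). For the chaperones of the endoplasmic reticulum, the log2 fold changes were 0.36 for Hspa5, 0.32 for Dnajc3, 0.20 for Dnajb11, -0.24 for Dnajb9 and 0.46 for Dnajc10, the last with an edgeR adjusted p of 0.0504, and none passed in the fit of 3 groups.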

How the data were processed

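RNA of sorted cells was amplified with a whole-transcriptome kit and made into libraries with a tagmentation kit, per the labels' protocols. Trimmomatic 0.36 and the builds GRCm38 and mm10 are named in the submitters' processing notes. Which aligner, counter and annotation the authors used is not given in the sources used here. The deposited table held, per the file headers, an expected count (68.3% to 73.1% whole numbers) and an FPKM value, scaled for length and depth by the authors, for each gene. The labels number the ONC samples 1 to 3 and the table's ONC columns 3, 5 and 6, so these libraries carry no replicate number, and 3 FPKM columns of ONC were not used.

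Expected counts were rounded and fitted in R 4.3.3 with edgeR 4.0.16 (filterByExpr by group, TMM, 1 quasi-likelihood model over 9 libraries, no covariate), which was tested on simulated data. Benjamini-Hochberg adjustment ran over 15841 genes and a gene was called under 0.05. Other settings were DESeq2 1.42.0, other scalings, filters, sets of libraries and a loess offset (span 0.5) on GC content and length. Symbols, lengths and GC content came from GENCODE release M21. Genes were named when called, when among 18 preset chaperones or when among the 2 highest per length in a family. Up to 4 called genes were named per partner list, except that all called genes of the CCT and prefoldin list were. Trap1 of the HSP90 co-chaperone list was named in addition. Genes called only in other settings, Dnajc10 among them, and those nearest the count minimum were named outside this rule. Members and lists were chosen with earlier results of these data known.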

Additional observations from a re-analysis of the deposited data

How the results depend on the processing

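Member counts are given with the higher and lower shares of all genes in brackets. In ONC against Ctrl (14 higher, 8 lower), summing columns 3 and 6 called 11 and 2 (7.42% and 4.37%). Leaving out 1 library called 10 to 18 higher (6.73% to 23.1%) and 2 to 18 lower (4.10% to 23.3%). Among named members called in either fit, the sign turned for Hspe1 (0.05), Hsp90b1 (0.42) and Hspa4l (0.48), all with the GC and length offset. The split under this offset was 20 higher to 6 lower, and the cause was not tested. Sign changes of values called in neither fit are not listed. In CKO against ONC (0 and 0), library totals gave 0 and 5 (1.33% and 1.81%) and no filter 2 and 4 (1.79% and 1.54%). The stricter filter (54 members tested) gave 2 and 5 (4.03% and 4.09%), the GC and length offset 0 and 1 (0.265% and 0.189%), and DESeq2 7 and 8 (7.35% and 6.84%). Leaving out 1 library gave 0 to 16 higher (0.00606% to 18.6%) and 0 to 15 lower (0.00606% to 18.1%). Library totals moved the median of all genes from -0.02 to -0.13 there. In CKO against Ctrl (2 and 2), upper quartile scaling (3.28% and 5.76%) and library totals (3.40% and 5.74%) each gave 1 and 4. The stricter filter gave 3 and 4 (6.78% and 7.51%), the GC and length offset 4 and 2 (7.99% and 4.75%), and DESeq2 4 and 5 (7.31% and 6.74%). The 2 groups alone gave 10 and 5 (10.5% and 8.98%), and leaving out 1 library 0 to 1 higher (1.53% to 2.80%) and 1 to 3 lower (1.29% to 2.84%). With a replicate block the count was 10 and 5, as without it in the same 2 groups, where 9.58% and 8.12% of all genes were called with the block. Same-numbered Ctrl and CKO libraries did not deviate together (r = 0, 0.01 and 0.01), which gives no sign of pairing by number but cannot exclude it. RLE scaling, robust spread and genes with a symbol only kept every count within 1.5 times. Levels per length from FPKM and from CPM per kilobase correlated by rank (Spearman rho 0.9 over 62 genes), and 12 of 14 members were in the top 2 of their family by both. The lowest members, at a few counts per library, allow only large changes to be seen.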
